A study of Oryza sativa with 26 samples.

Results

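Cyclins, cyclin-dependent kinases, kinesins and DNA replication proteins make up much of the machinery with which a cell copies its chromosomes and divides. Their transcripts were measured here through the development of the rice lamina joint. The genes were taken by name alone, as those whose symbol or synonym, with any Os prefix removed, names a cyclin (CYC), a cyclin-dependent kinase (CDK), a kinesin (KIN), a subunit of the MCM, ORC, RFC or RPA complexes, or PCNA. The rule matched 103 genes, and 92 of them had a probe set assigned to no other gene, out of 17905 genes with such a probe set. The 92 are 23 cyclins, 11 CDKs, 32 kinesins, 8 MCM genes, 5 ORC genes, 5 RFC genes, 7 RPA genes and PCNA. The other 11 had no probe set of their own and were not analysed here. They are CYCA3-1, CYCB1-5, CYCD2-1, the CYCT1-1 gene at LOC4328207, CDKB1-1, CDKC-2, CDKF-2, KIN12F, KIN14D, KIN14P and ORC6.

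An A-type or B-type cyclin joins a CDK to drive the cell through DNA synthesis and mitosis. D-type cyclins act earlier, by releasing the block that the retinoblastoma-related protein puts on replication genes, and CDK inhibitors of the KRP family hold the kinases back. The origin recognition complex (ORC) marks where copying starts, the MCM helicase unwinds the DNA, RPA coats the single strands, and RFC loads the sliding clamp PCNA. Kinesins are motor proteins on microtubules: some build the spindle or the phragmoplast, on which a plant cell lays its new wall, and others serve transport and cell shape in cells that no longer divide. The lamina joint is the hinge between leaf sheath and leaf blade. Its cells divide while the joint is young and expand later, and their growth sets the leaf angle.

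Lamina joints of 3 leaves were sampled at stages 2, 4, 5 and 6, and are called here the third, the second and the last joint after the leaf they came from. A 0.5 cm piece of the third leaf, cut beside its joint at stage 4, served as the leaf control. All plants were untreated japonica rice of the cultivar Zhonghua 11 from a greenhouse. The labels describe stage 2 joints as young and creamy yellow or white, stage 4 joints as mature with a leaf angle of 0, stage 5 joints as white with the angle increasing, and stage 6 joints as senescent, dehydrated and distorted, while the leaf piece was green. The third joint was taken 50, 55, 60 and 70 days after sowing, the second joint at 55, 60, 65 and 75 days, the last joint at 60, 65, 70 and 80 days, and the leaf piece at 55 days. At a given stage, leaf position and plant age therefore cannot be told apart. Each of the 13 groups has 2 arrays, which the labels call biological replicates 1 and 2. Whether they came from separate plants is not given. A p-value here covers no more than the spread of these arrays, which may not be that between plants.

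Levels are log2 expression values from Affymetrix arrays, on which a difference of 1 is a 2-fold change. Where several probe sets match a gene, the one with the highest mean stands for it, and levels of different genes are not set against each other, since probe sets differ in brightness. A difference was called, and is described as higher, lower, risen or fallen, where the adjusted p of 1 limma model over all 57258 probe sets was under 0.05 and the change at least 2-fold. Other differences are given as values.

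LG1, the gene whose loss removes the lamina joint, lay at 8.93 and 8.96 on the stage 4 arrays of the third joint, against 6.03 and 5.84 in the leaf piece. On the other joint arrays it lay between 7.52 and 9.89. Of the 5 green leaf markers measured, the mean level was 9.25 and 9.58 in that joint, against 11.3 and 11.3 in the leaf. On the other joint arrays it was 7.41 to 10.3. Single markers varied: CAB2R had means of 13.8, 13.5 and 13.7 in the last, the second and the third joints at stage 2. In the leaf, at stage 4, its mean was 13.7. RCABP89 had means of 11.8, 10.8 and 10.3 in the same joints, against 12.8 in the leaf. Those of RCABP69 were 11.5, 10.5 and 10.8, against 12.7, and those of RBCS 10.7, 10.4 and 10.5, against 14.1. RBCS1 was at 2.78, 2.74 and 2.81, against 3.3. The 3' minus 5' difference of the Gapdh control, a sign of RNA quality, was 3.0 to 3.41 on the 6 stage 6 arrays, 2.93 and 3.33 in the last joint at stage 5 and 3.78 in the third joint at stage 4 replicate 2, against 1.47 to 2.09 on all other arrays. The second joint at stage 5 replicate 1 had the lowest upper quartile of all arrays, 7.50, against 7.90 to 8.08 elsewhere.

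The young joints were where most of these genes were brightest. The highest group mean of the 4 stages and 3 leaves was in the third joint at stage 2 for 33 of the 92 genes, in the second joint at stage 2 for 23 and in the last joint at stage 2 for 4, while the leaf piece held the highest mean of 12. How often all probe sets had their highest mean in these groups was not counted. Taking the median of all values, 5.11, as a floor, 87 genes were above it in at least 1 group and 5 in none: CYCB1-3, CYCF2-2, MCM8, ORC3 and ORC5. No detection calls were used here, so a level at or below this floor may not be above background. A difference against such a level is one of measured values, and the fold it gives can understate the change. At stage 2, 6 genes lay at or below it in the third joint, 6 in the second joint and 19 in the last joint. At the later stages 25 to 28 did, and 20 in the leaf piece.

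**Figure D1:**
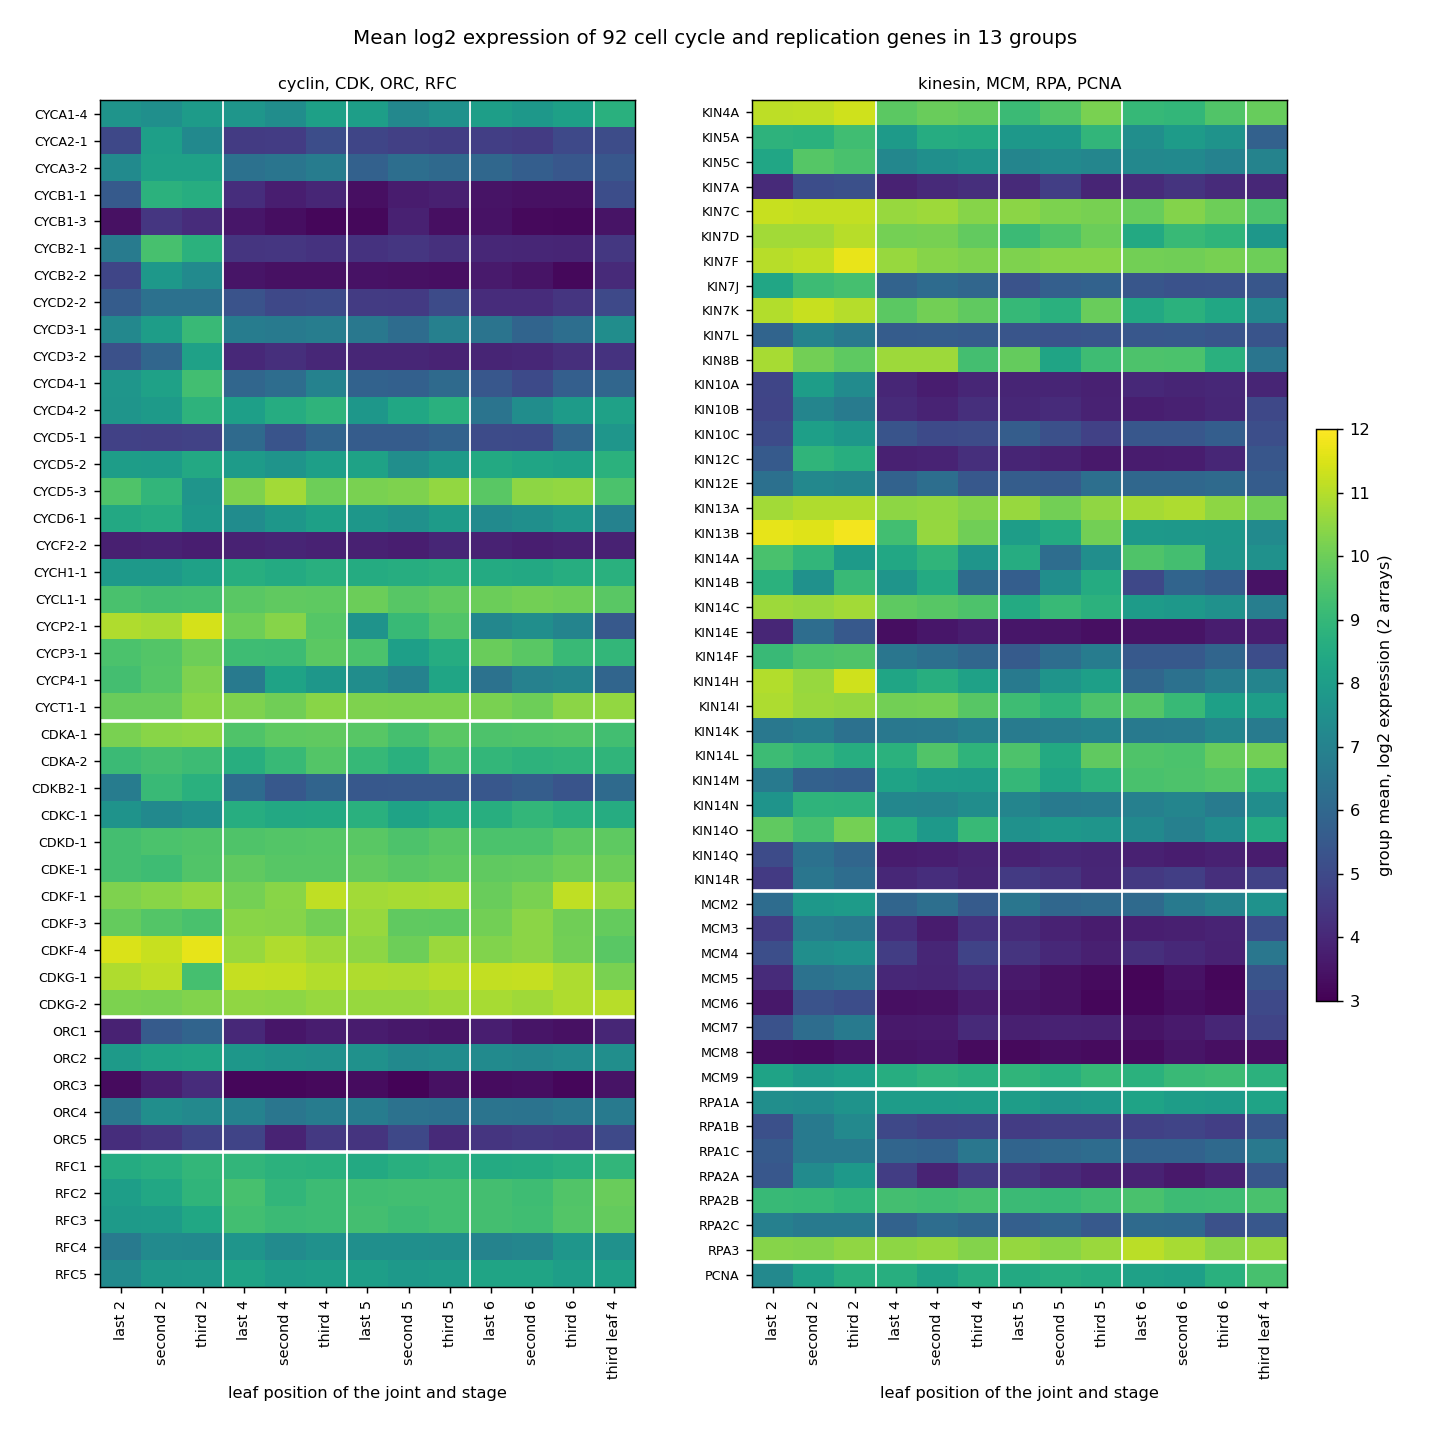
Group mean level (log2 expression, colour, 2 arrays per group) of the 92 genes, one gene per line, with the joints ordered by stage and within a stage as the last, the second and the third, and the leaf piece at the right. Colours compare groups along a line, not genes with each other; in the stage 2 columns most lines are brighter than in the later ones.

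The replicates of the young joints did not match well in these genes. Among the 40 genes that were lower at stage 4 than at stage 2, 33 were higher in replicate 1 than in replicate 2 of the last joint, 18 of them at least 2-fold. In the third joint the difference ran the other way, with 35 of the 40 higher in replicate 2 and 24 of them at least 2-fold. The second joint was closer, with 24 higher in replicate 2 and 6 of those at least 2-fold. The median level of the 40 genes was 6.89 and 5.05 in replicates 1 and 2 of the last joint, 7.97 and 8.23 in the second and 7.54 and 8.59 in the third. Over all 92 genes the root-mean-square difference between replicates was 0.958 in the last and 0.964 in the third joint, against 0.398 and 0.513 over all probe sets. In a bulk sample fewer dividing cells and less RNA per dividing cell cannot be told apart, here and in every result that follows. Every gene given by the naming rule of the methods and called between stages 4 and 2 kept its call without the last joint at stage 2 replicate 2. Values without single arrays stand beside several results. The falls given below without that array were larger than with all arrays, and without replicate 1 of the same group they were smaller. Without replicate 1 the differences were -3.04 for CYCB1-1, -3.39 for CYCB2-1, -2.82 for CYCB2-2 and -2.05 for CDKB2-1. They were -3.18 for KIN12C, -2.51 for KIN10A, -2.01 for MCM4 and -2.21 for RPA2A.

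Between the young and the mature joint, the stage 4 against stage 2 comparison averaged over the 3 leaves, 40 of the 92 genes fell and 5 rose. That is 43.5% lower and 5.43% higher, against 5.8% lower and 5.67% higher among all probe sets. The median difference was -0.73 over the 92 genes and 0.0002 over all probe sets. By family, 11 of 23 cyclins fell and 2 rose, 1 of 11 CDKs fell and 1 rose, 19 of 32 kinesins fell and 1 rose, 6 of 8 MCM genes fell, 1 of 5 ORC genes and 2 of 7 RPA genes fell, 1 of 5 RFC genes rose, and PCNA was not called. Of the 40 that fell, 19 were at or below the floor in all 3 mature joints, 19 stayed above it in all 3, and 2 were mixed. Those at or below it, whose differences can be understated, include CYCB1-1, CYCB2-1, CYCB2-2, KIN10A, KIN12C, MCM4, MCM7, ORC1, RPA1B and RPA2A. With each of the 12 arrays left out in turn, 36 to 40 genes fell, and with the second and the third joints alone, an alternative chosen after seeing the data, 43 fell and 4 rose.

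Of the 4 B-type cyclins measured, 3 fell. CYCB2-1, a B-type cyclin of mitotic entry, lay at 4.30 and 4.45, 4.57 and 4.30, and 4.35 and 4.32 in the last, the second and the third joints at stage 4. At stage 2 it lay at 8.28 and 5.19, 9.62 and 9.13, and 7.91 and 9.60 in the same joints. All 6 stage 4 arrays were below all 6 stage 2 arrays, by 3.91 on average (SE 0.38, adjusted p = 3.96e-07), and by 4.42 without the last joint at stage 2 replicate 2. CYCB1-1, another mitotic cyclin, lay at 4.04 and 4.30, 3.81 and 3.71, and 3.78 and 4.19 at stage 4. At stage 2 it was at 7.47 and 3.64, 8.90 and 8.67, and 7.48 and 9.73 (difference -3.68, SE 0.46, adjusted p = 8.2e-06). Here the groups overlapped through 1 array, the last joint at stage 2 replicate 2, which at 3.64 was below every stage 4 array, and without it the difference was -4.32. CYCB2-2 fell by 3.23 (SE 0.36, adjusted p = 2.47e-06), and by 3.64 without that array. The gene listed as CYCB1-3, which also carries CycB1-1 as a synonym, stayed between 3.05 and 4.77 on all arrays.

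CDKB2-1, the plant-specific CDK that is made around mitosis, was the 1 kinase that fell. It lay at 6.19 and 6.08, 5.33 and 5.61, and 5.88 and 5.93 in the last, the second and the third joints at stage 4. At stage 2 it was at 7.70 and 5.83, 9.19 and 9.04, and 7.82 and 9.61 (difference -2.36, SE 0.30, adjusted p = 1.09e-05). Again the last joint at stage 2 replicate 2 lay among the mature joints, and without it the difference was -2.67. CDKA-1, the main CDK of the cycle, which is made throughout it, lay at 9.48 to 9.84 at stage 4, against 10.04 to 10.7 at stage 2, a change under 2-fold.

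The A-type cyclins CYCA2-1 and CYCA3-2 fell and CYCA1-4 did not. CYCA2-1 had group means near 4.6, 4.6 and 5.1 in the last, the second and the third joints at stage 4, against 5.0, 8.1 and 7.3 at stage 2. Among the D-type cyclins, which couple outside signals to entry into the cycle, CYCD2-2, CYCD3-1, CYCD3-2 and CYCD4-1 fell, while CYCD4-2, CYCD5-2 and CYCD6-1 were not called. CYCD5-3 rose: it lay at 10.61 and 9.89, 10.71 and 10.80, and 10.18 and 9.82 in the last, the second and the third joints at stage 4, against 9.63 and 9.43, 8.97 and 8.86, and 8.23 and 7.16 at stage 2. All its stage 4 arrays were above all its stage 2 arrays (difference 1.62, SE 0.18, adjusted p = 2.49e-06). CYCD5-1 also rose, by 1.04 (SE 0.22, adjusted p = 0.00119), but was less than 2-fold when replicate 2 of the third joint at stage 4 (0.74) was left out, or the last joint at stage 4 replicate 2 (0.99) or the second joint at stage 2 replicate 1 (0.995). The P-type cyclins CYCP2-1 and CYCP4-1 fell and CYCP3-1 did not.

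Of the kinases and cyclins of transcription and CDK activation, CDKC-1 rose and none fell. CDKC-1, of the class that pairs with T-type cyclins to release RNA polymerase II, lay at 8.33 to 8.76 at stage 4, against 7.22 to 7.67 at stage 2, without overlap (difference 1.03, SE 0.12, adjusted p = 3.27e-06). It was at 0.98 without the last joint at stage 4 replicate 1 and at 0.99 without the third joint at stage 4 replicate 2. CYCH1-1 and CDKD-1, which form the CDK-activating kinase, were not called. Neither were the measured CYCT1-1 (LOC4352229), CYCL1-1, CDKE-1, CDKF-1, CDKF-3, CDKG-1 and CDKG-2. CDKA-2 and CYCF2-2, which are not placed in these classes here, were not called either. CDKF-4 was at -0.72 (SE 0.13, adjusted p = 0.000477), under the fold limit. For 3 genes a second probe set disagreed: the dimmer probe set of CDKF-4 was called lower at -1.61, that of CYCD5-2 lower at -2.09 against -0.25 for the brighter one, and that of CDKE-1 higher at 2.42 against 0.35.

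**Figure D2:**
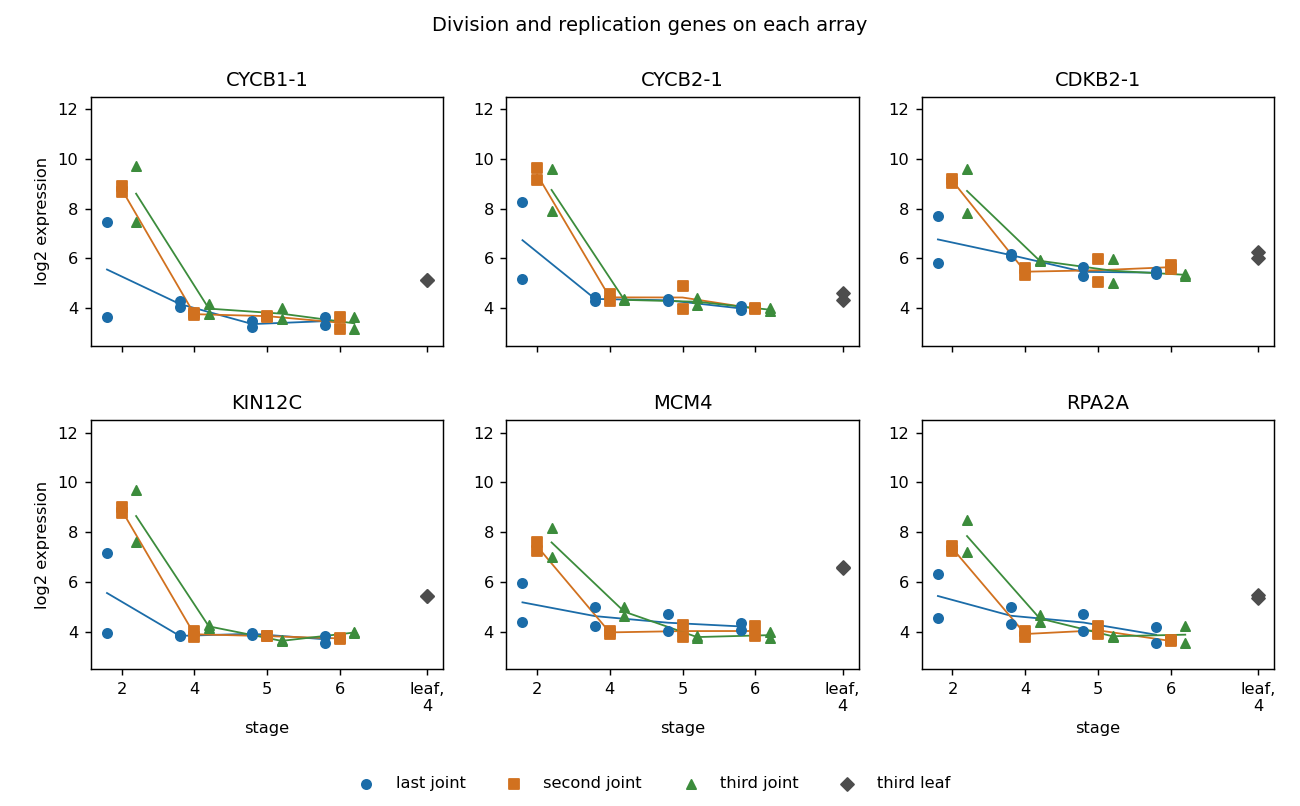
Level (log2 expression, vertical axis) of 6 genes on each array by stage (horizontal axis), with the last, the second and the third joints as circles, squares and triangles, lines through the group means, and the leaf piece at stage 4 as diamonds. At stage 2 the replicates of the last and the third joints lie far apart, for CYCB1-1 at 7.47 and 3.64 in the last joint, and from stage 4 on the points stay low.

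Of the 32 kinesins, 19 fell. KIN12C belongs to the class whose members in Arabidopsis work in the phragmoplast. It lay at 3.85 and 3.81, 3.77 and 4.02, and 4.15 and 4.28 in the last, the second and the third joints at stage 4, against 7.16 and 3.95, 9.0 and 8.77, and 7.60 and 9.69 at stage 2 (difference -3.72, SE 0.39, adjusted p = 1.15e-06). Its last joint at stage 2 replicate 2 was within the range of the mature joints, and without it the difference was -4.25. KIN10A, known in rice as STD1, a kinesin needed for phragmoplast expansion, fell by 2.86 (SE 0.31, adjusted p = 1.76e-06), and by 3.20 without that array. KIN5C, of the class that slides spindle microtubules apart, lay at 6.98 to 7.68 at stage 4, against 7.88 to 10.1 at stage 2, and fell, while KIN5A of the same class was not called.

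KIN7J, KIN14F, KIN14H and KIN4A fell in each of the 3 joints. KIN7J lay at 5.92 and 5.80, 6.52 and 5.77, and 5.88 and 6.08 in the last, the second and the third joints at stage 4, against 8.80 and 7.86, 8.93 and 9.42, and 9.17 and 9.51 at stage 2. The groups were well apart (difference -2.96, SE 0.17, adjusted p = 7.92e-10). KIN14F, of the minus-end-directed kinesin-14 class, was at 5.58 to 6.83 at stage 4, against 8.58 to 9.83 at stage 2 (difference -3.10, SE 0.25, adjusted p = 4.01e-08). KIN14H was at 7.92 to 8.65, against 10.2 to 11.4, and KIN13B, of the class that takes microtubule ends apart, at 8.96 to 10.7, against 11.4 to 11.9. KIN4A, known in rice as GDD1, which affects cell wall order and gibberellin synthesis, was at 9.43 to 10.2, against 11.0 to 11.5.

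KIN14M was the 1 kinesin that rose. It lay at 8.50 and 7.98, 7.92 and 8.02, and 7.55 and 8.32 in the last, the second and the third joints at stage 4, against 6.51 and 6.89, 6.15 and 5.46, and 5.85 and 5.52 at stage 2. Every mature joint was above every young one (difference 1.99, SE 0.16, adjusted p = 3.68e-08). The other kinesins that fell were KIN7K, KIN10B, KIN10C, KIN12E, KIN14B, KIN14C, KIN14E, KIN14N, KIN14O, KIN14Q and KIN14R. KIN5A, KIN7A, KIN7C, KIN7D, KIN7F, KIN7L, KIN8B, KIN13A, KIN14A, KIN14I, KIN14K and KIN14L were not called.

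Of the replication genes, the helicase subunits MCM2 to MCM7 all fell. MCM7 lay at 3.72 and 3.52, 3.97 and 3.33, and 4.10 and 4.05 in the last, the second and the third joints at stage 4, against 5.81 and 4.76, 5.80 and 6.65, and 6.37 and 7.07 at stage 2. Its groups did not overlap (difference -2.29, SE 0.20, adjusted p = 1.29e-07). MCM4 fell by 2.27 (SE 0.25, adjusted p = 1.58e-06), with the last joint at stage 2 replicate 2, at 4.40, inside the stage 4 range of 3.90 to 5.00, and fell by 2.53 without that array. MCM8 and MCM9, relatives that act in DNA repair rather than in the replication helicase, were not called: MCM8 stayed between 3.11 and 3.64 on all arrays, and MCM9 was at 8.53 to 8.88 at stage 4, against 7.88 to 8.38 at stage 2.

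Origin, clamp and strand-binding genes were less uniform. ORC1 fell by 1.35 (SE 0.16, adjusted p = 5.85e-06), while ORC2, ORC3, ORC4 and ORC5 were not called (ORC3 -0.53, SE 0.13, adjusted p = 0.00538). RPA2A fell by 2.51 (SE 0.27, adjusted p = 1.61e-06): it lay at 4.29 and 4.99, 4.04 and 3.77, and 4.66 and 4.40 in the last, the second and the third joints at stage 4, against 6.34 and 4.53, 7.23 and 7.45, and 7.19 and 8.49 at stage 2. Without the last joint at stage 2 replicate 2 it fell by 2.81. RPA1B fell by 1.54 (SE 0.27, adjusted p = 0.000281). Their paralogues RPA1A, RPA1C, RPA2B and RPA2C and the small subunit RPA3 were not called. RFC3, a subunit of the clamp loader, rose: it lay at 8.98 to 9.37 at stage 4, against 7.74 to 8.43 at stage 2 (difference 1.13, SE 0.10, adjusted p = 1.22e-07). RFC2 was at 0.72 (SE 0.11, adjusted p = 6.15e-05), under the fold limit, and RFC1, RFC4 and RFC5 were not called. PCNA was at 0.45 (SE 0.18, adjusted p = 0.067), with 8.09 to 9.04 over both stages in the third joint, and 8.87 and 8.39 at stage 4, against 7.40 and 7.08 at stage 2, in the last joint.

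Of 31 further genes of the pathway, 23 were measured, and 3 fell at stage 4, against stage 2, while none rose. Among all probe sets 5.8% fell and 5.67% rose. The median difference of the 23 genes was 0.09, and 0.0002 over all probe sets. The CDK inhibitor KRP6 lay at 3.54 and 3.63, 3.97 and 3.86, and 3.89 and 4.02 in the last, the second and the third joints at stage 4, against 8.95 and 7.47, 8.87 and 8.44, and 8.40 and 9.19 at stage 2. It fell by 4.74 (SE 0.20, adjusted p = 2.12e-11), with no overlap, against stage 4 levels that all lay under the floor. RBR1, a retinoblastoma-related gene, fell by 1.60 (SE 0.15, adjusted p = 2.51e-07). Its group means at stage 4, 3.49, 3.35 and 4.06 in the last, the second and the third joints, were under the floor. The third, named after its values were seen, was CENH3, the histone of the centromere, at -1.08. The inhibitors KRP1, KRP4 and KRP5 were not called.

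Markers of other tissues moved in part between these stages. Of 5 meristem markers, HOS66 fell by 1.86 and OSH71 rose by 1.51, OSH1 stayed near 3.2 at both stages, and the mean level of the list was 5.61 to 6.11 at stage 4, against 5.67 to 6.54 at stage 2. Of 5 green leaf markers, CAB2R, RCABP89 and RCABP69 fell and RBCS rose, with a mean level of 8.23 to 10.3 at stage 4, against 9.50 to 10.2 at stage 2, and RBCS1 near the lowest values on every array. Of 7 panicle markers 1, MADS1, rose by 1.08, with a mean level of 4.78 to 5.18 at stage 4, against 4.82 to 5.05 at stage 2. Their part in the results was not tested.

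**Figure D3:**
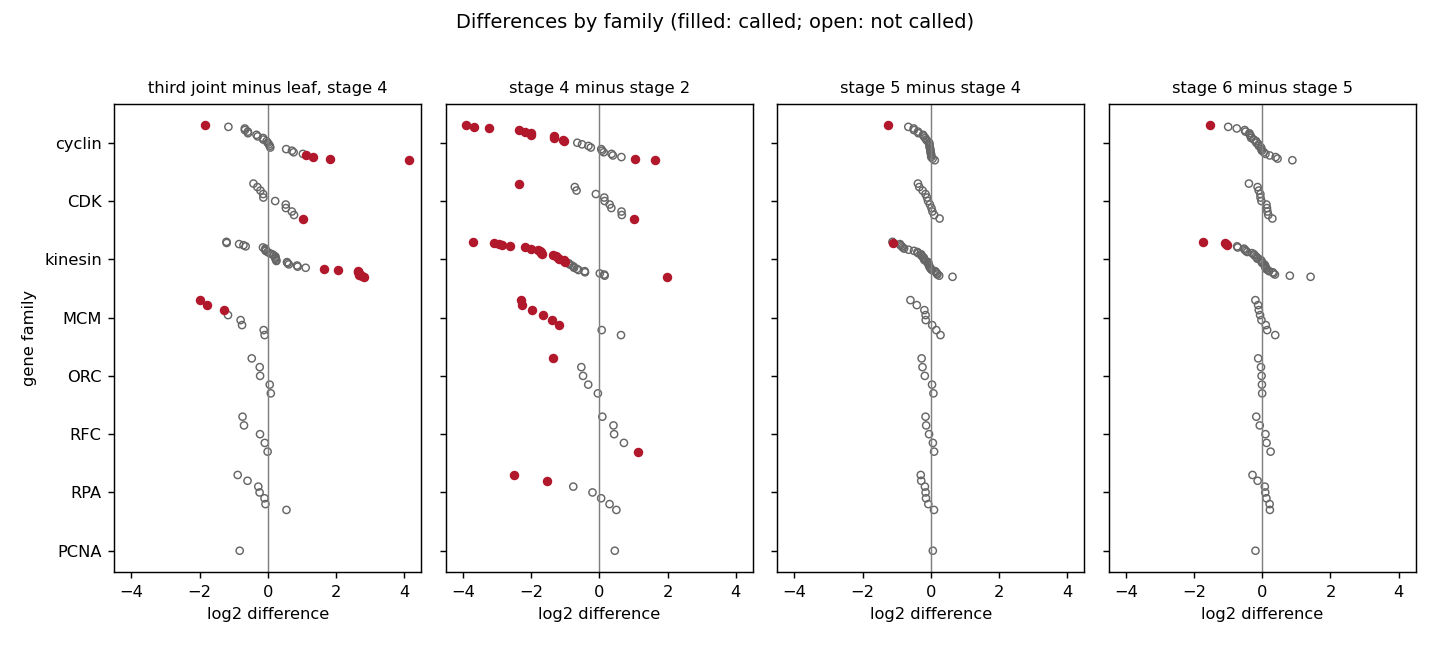
Log2 difference (horizontal axis) of each gene, by family (vertical axis), in the third joint minus leaf comparison at stage 4 and in the 3 stage steps averaged over leaves; filled points were called and open points were not. Stage 4 minus stage 2 holds most of the called points, 40 below 0 and 5 above.

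The number of genes called in the first step differed between the 3 leaves. A difference between leaves in the first step alone was not tested. Within the third joint 41 of the 92 genes were lower at stage 4 than at stage 2, within the second 36 and within the last 13. All probe sets gave 7.39%, 5.47% and 4.96% lower in the same joints. For the patterns across joints that follow, the share among all probe sets was not counted. Of the 92 genes, 10 fell in all 3 joints: CYCB2-1, CYCD4-1, CYCP4-1, KIN4A, KIN5C, KIN7J, KIN7K, KIN14F, KIN14H and MCM7. A further 23 fell in the second and the third joints without being called in the last. They include CYCB1-1, CDKB2-1, KIN12C, MCM2 to MCM6, ORC1, RPA1B and RPA2A. Of these, the F-test over all steps, given below, called MCM3 to MCM6 and ORC1. It did not call CYCB1-1, CDKB2-1, KIN12C, MCM2, RPA1B or RPA2A. CYCD6-1 and RPA2C were called lower in the last joint and in neither of the others, and the difference between joints was not called for either. Fewer rose: 4 in the third joint, 4 in the second and 5 in the last, against 7.11%, 5.39% and 4.12% of all probe sets, and KIN14M rose in all 3 joints. PCNA was called higher in the last joint, at 1.39 (adjusted p = 0.00548), and in neither of the others, but the test of the difference between joints did not call it. A setting chosen after seeing the data left out replicate 2 of the last joint and replicate 1 of the third, both at stage 2, and called 29 genes in the last joint, higher or lower, against 18 with all arrays.

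A test of the difference itself, a limma F-test over the 3 steps and 3 leaves, called 10 of the 92 genes at an adjusted p under 0.05, against 5.48% of all probe sets. The smallest adjusted p were those of ORC1 (0.00717), ORC5 (0.0072) and KIN14B (0.00902). The number depended on single arrays. It was 2 without the last joint at stage 2 replicate 2, 20 without replicate 1 of that group, 24 when replicate 1 of the third joint at stage 2 was left out, and 23 without the second joint at stage 5 replicate 2.

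Among the young joints themselves, the last joint was the lowest in many of these genes. It was lower than the second joint in 12 genes, 13% of the 92 against 0.323% of all probe sets, and higher in none (0.203% of all probe sets). At an unadjusted p under 0.05 limma gave 33 lower and 2 higher. KIN10C differed by -3.03 (SE 0.46, adjusted p = 0.00777), KIN14E by -2.24 (SE 0.35, adjusted p = 0.00866) and MCM6 by -1.72 (SE 0.28, adjusted p = 0.00999). The last joint was also lower than the third in 28 genes, 30.4% against 2.5% of all probe sets, and higher in 3, CYCD5-3, CDKG-1 and KIN14M (3.26% against 3.41%). CYCD3-2 lay at 5.56 and 4.89 in the last joint, against 7.69 and 8.61 in the third (difference -2.92, SE 0.38, adjusted p = 0.000116). ORC1 differed by -2.03 (SE 0.28, adjusted p = 0.000217) and MCM5 by -2.48 (SE 0.38, adjusted p = 0.000454). Both comparisons share the 2 arrays of the last joint.

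These counts rest on the replicates that differed. Without the last joint at stage 2 replicate 2, no gene was called against the second joint and 8 were called against the third. Without replicate 1 of the same group 21 were called against the second joint. Against the second joint, KIN10C was at -2.34 (adjusted p = 0.146), KIN14E at -1.78 (adjusted p = 0.205) and MCM6 at -1.45 (adjusted p = 0.219) without the last joint at stage 2 replicate 2, all uncalled. KIN10C and KIN14E also lost their calls without the second joint at stage 2 replicate 1 (adjusted p = 0.0622 and 0.0886). Against the third joint, CYCD3-2, ORC1 and MCM5 kept their calls with any 1 of the 4 arrays left out, at -2.46 to -3.38, -1.38 to -2.69 and -1.79 to -3.18. Against the second joint, 4 genes were called without its replicate 1 and 6 without its replicate 2. Against the third joint, 7 were called without its replicate 2. A fit of only the 6 stage 2 arrays called 0 genes against the second joint and 1 against the third.

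The second and the third joints at stage 2 differed in few genes. CYCD3-2 was lower in the second joint, 1.09% of the 92 against 1.89% of all probe sets, and CDKG-1 and CYCD5-3 were higher, 2.17% against 2.79%. CDKG-1, a CDK of the class that binds L-type cyclins, lay at 11.22 and 10.99 in the second joint, against 9.80 and 8.88 in the third (difference 1.77, SE 0.30, adjusted p = 0.00119). The third joint at stage 2 was the 1 group in which both arrays of CDKG-1 were under 10. CYCD3-2 was at 5.15 and 6.82 in the second joint (difference -2.16, SE 0.38, adjusted p = 0.00179), and CYCD5-3 differed by 1.22 (SE 0.32, adjusted p = 0.0279). CYCD3-2 and CDKG-1 kept their calls with any 1 of the 4 arrays left out (-1.33 to -3.0 and 1.31 to 2.22), while CYCD5-3 lost its call without either array of the second joint or replicate 2 of the third (adjusted p = 0.0682 to 0.288). Without the second joint at stage 2 replicate 2 or the third joint at stage 2 replicate 2, 5 genes were called. Averaged over the 4 stages, 1 gene was called between leaves, CYCD4-2, lower in the last than in the third joint by 1.09 (SE 0.24, adjusted p = 0.016; 0.389% of all probe sets were lower and 0.751% higher). All probe sets gave 0.0524% lower and 0.136% higher between the last and second joints, and 0.115% lower and 0.26% higher between the second and the third. The number of the 92 genes called was 0 without the last joint at stage 4 replicate 2 or the third joint at stage 6 replicate 1, and 6 without the last joint at stage 2 replicate 1, with 1 to 3 for the other arrays.

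The mature joint was then compared with the leaf blade beside it, in the third leaf at stage 4. Of the 92 genes 13 were higher in the joint and 4 lower, 14.1% and 4.35%, against 3.42% and 3.99% of all probe sets. The median difference was -0.05, and -0.0028 over all probe sets. Of the 32 kinesins 8 were higher and none lower, of the 23 cyclins 4 were higher and 1 lower, and of the 11 CDKs 1 was higher. Of the 8 MCM genes 3 were lower and none higher, and no ORC, RFC or RPA gene was called.

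Of the 8 kinesins higher in the joint, KIN7K, KIN13B, KIN14B and KIN14C also fell between stages 2 and 4, and KIN5A, KIN7D, KIN8B and KIN14I were not called there. KIN5A lay at 8.31 and 8.67 in the joint, against 6.10 and 5.52 in the leaf (difference 2.68, SE 0.24, adjusted p = 1.65e-06). KIN13B lay at 10.73 and 9.40, against 7.81 and 6.78 (difference 2.77, SE 0.39, adjusted p = 0.000161). KIN14B lay at 5.97 and 6.28, against 3.46 and 3.45 in the leaf, under the floor, so that the difference can be understated (2.67, SE 0.54, adjusted p = 0.00317). KIN8B lay at 9.68 and 8.94, against 6.64 and 6.33 (difference 2.83, SE 0.75, adjusted p = 0.0211), a call lost without either leaf array or without joint replicate 1 (adjusted p = 0.0785 to 0.158). The others were KIN7D, KIN7K, KIN14C and KIN14I. KIN12C, at 4.15 and 4.28 in the joint, against 5.42 and 5.42 in the leaf, and KIN10A, at 3.97 and 3.98, against 4.03 and 3.83, were not called.

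CYCP2-1 had the largest difference of the 92 genes in this comparison. It lay at 10.16 and 9.12 in the joint, against 5.63 and 5.38 in the leaf (difference 4.13, SE 0.51, adjusted p = 5.01e-05). P-type cyclins resemble yeast cyclins of phosphate signalling. CYCP4-1 was at 7.44 and 8.10, against 5.99 and 5.90 (difference 1.83, SE 0.44, adjusted p = 0.0119), a call lost without joint replicate 2 or either leaf array (adjusted p = 0.0596 to 0.105). CYCA3-2 and CYCD6-1 were also higher. CDKF-4 differed by 1.02 (SE 0.23, adjusted p = 0.00844), which was 0.78 without joint replicate 1, 0.87 without leaf replicate 2 and 0.37 with the mean of its probe sets.

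Of the replication genes, MCM2, MCM4 and MCM6 were called lower in the joint than in the leaf, and the others were not called. Called lower were 4.35% of the 92 genes, near the 3.99% of all probe sets. MCM2 lay at 5.47 and 5.70 in the joint, against 7.07 and 8.07 in the leaf (difference -1.98, SE 0.40, adjusted p = 0.00308). MCM4 lay at 4.61 and 4.99, against 6.60 and 6.57 (difference -1.78, SE 0.43, adjusted p = 0.0111), and MCM6 at 3.53 and 3.87, against 4.90 and 5.08 (difference -1.29, SE 0.28, adjusted p = 0.00501). MCM6 in both tissues and MCM4 in the joint were under the floor, so these levels may not be above background. All 8 MCM genes had a negative sign, with a median of -0.98. Among them MCM8 was also under the floor in both tissues. MCM9 was at -0.09, and its dimmer probe sets were at 0.13 and 0.05. RFC2 (-0.74, SE 0.19, adjusted p = 0.0171) and RFC3 (-0.70, SE 0.17, adjusted p = 0.0125) were under the fold limit. CYCD5-1, at 5.01 and 6.81 in the joint, against 7.68 and 7.80 in the leaf, was the 1 cyclin called lower (difference -1.83, SE 0.38, adjusted p = 0.00369), and without joint replicate 1 it was at -0.93. The CDK inhibitor KRP6 was lower too, at 3.89 and 4.02, against 5.86 and 5.30.

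Single arrays mattered here as well, with 2 arrays in each group. In a fit of only the 4 arrays compared, KIN13B (adjusted p = 0.0685), MCM2 (0.057), CDKF-4 (0.102) and CYCD5-1 (0.201) lost their calls. Without joint replicate 1 the number called lower was 1 in place of 4, since MCM4 (adjusted p = 0.0991) and MCM6 (0.0641) lost their calls beside CYCD5-1. Without leaf replicate 1, MCM4 did (0.0672), and without leaf replicate 2, MCM2 (-1.48, 0.0606) and MCM4 (0.0566) did. PCNA was at -0.83 (SE 0.31, adjusted p = 0.114) and was called lower, at -1.30, without joint replicate 2, the array with a Gapdh difference of 3.78. The mean level of the 5 meristem markers was 5.61 and 5.87 in the joint, against 4.02 and 3.88 in the leaf, with HOS66 and OSH71 higher by 4.83 and 3.34 and OSH1 at 3.33, against 3.21. The part of these other cells in the differences was not tested. The 2 joint arrays of this comparison also stand in the stage 4 against stage 2 comparison.

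**Figure D4:**
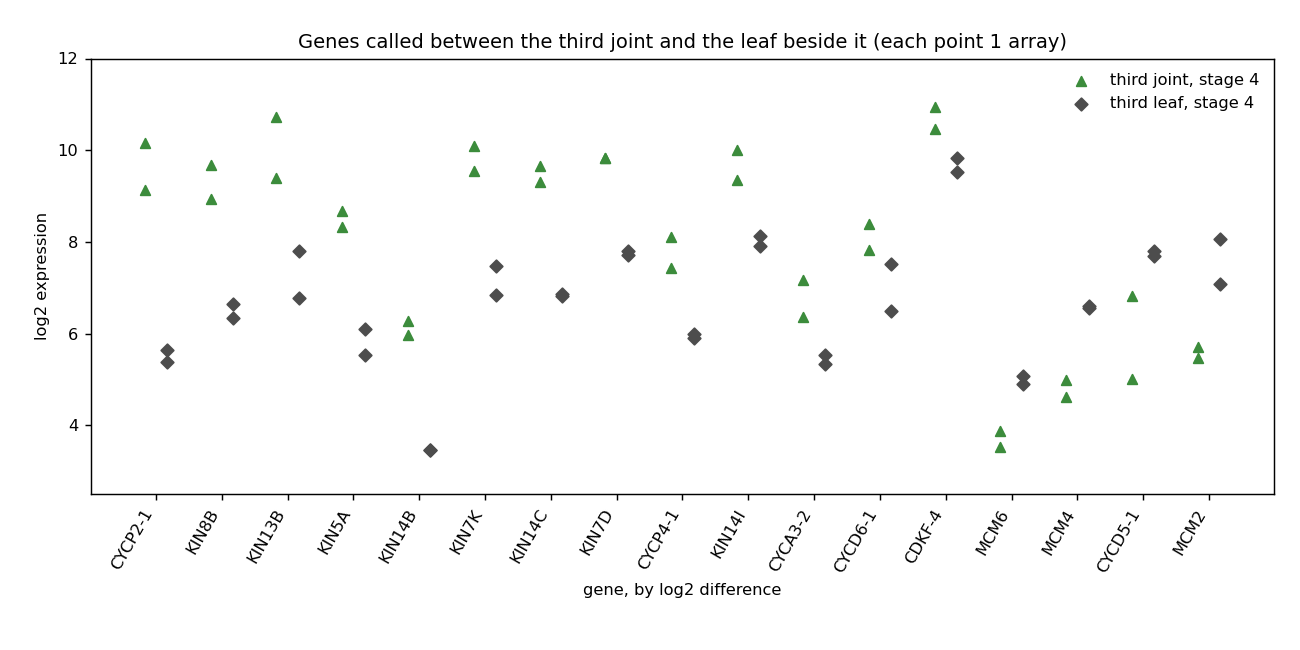
Level (log2 expression, vertical axis) on each array of the 17 genes called between the third joint (triangles) and the third leaf (diamonds) at stage 4, ordered by difference from the most positive to the most negative. CYCP2-1, at 10.16 and 9.12 in the joint, against 5.63 and 5.38 in the leaf, is the widest apart, and the last 4 genes are lower in the joint.

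After stage 4 few of these genes were called, and a further fall in those already at or below the floor may not show. Between stages 5 and 4, 2 of 92 were lower (2.17%, against 0.341% of all probe sets) and none higher (0.355% of all probe sets). At an unadjusted p under 0.05 limma gave 15 lower and 1 higher. CYCP2-1 fell by 1.27 (SE 0.30, adjusted p = 0.0447) and KIN13B by 1.09 (SE 0.23, adjusted p = 0.0209). In a fit of only the stage 4 and stage 5 joint arrays both calls were lost (adjusted p = 0.193 and 0.0565). Both calls were lost without any 1 of 8 arrays, which were replicate 2 of the last joint at stage 4 or at stage 5, either replicate of the second joint at stage 4, replicate 1 of the second joint at stage 5, replicate 1 of the third joint at stage 4, and either replicate of the third joint at stage 5. Without the second joint at stage 5 replicate 2, 5 genes were lower. The replicates of that group lay far apart in 2 kinesins, with KIN8B at 6.49 and 10.03 and KIN14A at 4.69 and 7.75 in replicates 1 and 2 of the second joint at stage 5.

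Between stages 6 and 5, the senescent against the bending joint, 5 of 92 genes were lower (5.43%, against 0.837% of all probe sets) and none higher (0.899%). At an unadjusted p under 0.05 limma gave 14 lower and 9 higher. The 5 lower genes were a cyclin and 4 kinesins, all of which had also fallen in the first step averaged over leaves. Within single leaves CYCP2-1, KIN14B and KIN14C were called lower in that step in the third joint only. The mean of KIN14B in the second joint was 7.56 at stage 2 and 8.50 at stage 4. The differences were -1.74 for KIN14B (SE 0.31, adjusted p = 0.00353), -1.52 for CYCP2-1 (SE 0.30, adjusted p = 0.00682), -1.09 for KIN14H (SE 0.24, adjusted p = 0.0126), -1.06 for KIN13B (SE 0.23, adjusted p = 0.0115) and -1.02 for KIN14C (SE 0.16, adjusted p = 0.00163). KIN13B was at -0.92 to -0.999 without replicate 2 of any of the 3 joints at stage 6 or of the second joint at stage 5, and KIN14C at -0.86 to -0.995 without those arrays, the last joint at stage 5 replicate 1 or the third joint at stage 5 replicate 2. All stage 6 arrays had a Gapdh difference of 3.0 or more, against 1.81 to 2.02 in the second and the third joints at stage 5. With that difference as a covariate all 5 lost their calls (KIN14B -1.71, CYCP2-1 -0.86, KIN14H -0.78, KIN14C -0.74 and KIN13B -0.30), and 1 gene was called. Of the panicle markers MADS1 rose by 1.15, with a mean level of the list of 4.87 to 5.40 at stage 6, against 4.96 to 5.16 at stage 5, and its part was not tested.

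KIN14C lay at 10.90 and 10.48, 9.70 and 9.85, 8.80 and 8.23, and 8.01 and 7.84 at stages 2, 4, 5 and 6 of the last joint. In the third joint it lay at 10.50 and 10.98, 9.66 and 9.31, 8.66 and 8.91, and 7.67 and 7.46. Each stage was below the one before in both joints. KIN13B had its lower call at stage 5 in the second joint and at stage 6 in the third: in the second joint it was at 8.29 and 8.72 at stage 5, against 10.64 and 10.50 at stage 4, while in the third it was at 10.73 and 9.40 at stage 4, 10.13 and 10.05 at stage 5 and 7.95 and 7.59 at stage 6. The F-test did not call this gene (adjusted p = 0.073).

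KIN14B, which the F-test called, followed a different course in the third joint. There it lay at 9.60 and 8.61, 5.97 and 6.28, 8.25 and 8.84, and 6.02 and 5.24 at stages 2, 4, 5 and 6. It was low at stage 4, the stage that stands against the leaf, and high again at stage 5 (difference between stages 5 and 4 of 2.42, called). In the last joint it lay at 8.57 and 8.93, 8.08 and 7.32, 6.22 and 5.19, and 4.91 and 4.98, with no step called. The second joint held 6.46 and 8.66 at stage 2, 8.55 and 8.44 at stage 4, 7.11 and 7.81 at stage 5 and 5.83 and 6.00 at stage 6.

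KIN14M, which rose in the first step, had its highest joint levels at stage 6. In the second joint it lay at 6.15 and 5.46, 7.92 and 8.02, 8.28 and 8.24, and 9.30 and 9.67 at stages 2, 4, 5 and 6, and in the third at 5.85 and 5.52, 7.55 and 8.32, 8.84 and 8.76, and 9.55 and 9.63. In the leaf piece it was at 8.35 and 8.83. Averaged over leaves its later steps were under the fold limit, and within the second joint the step between stages 6 and 5 was called higher.

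Within single leaves, the 6 later steps gave 16 calls in all. In the last joint CYCP2-1 and KIN14C were lower at stage 5 than at stage 4 (2.17%, against 0.318% of all probe sets) and none higher (0.473%). At stage 6 no gene was called in either direction (0.0699% of all probe sets each way), while limma gave 5 lower and 1 higher at an unadjusted p under 0.05. In the second joint KIN7K and KIN13B were lower and ORC5 higher at stage 5 (2.17% against 0.908%, and 1.09% against 0.382%), though ORC5 lay under the floor in every group, and KIN14C was lower and KIN14A and KIN14M higher at stage 6 (1.09% against 1.11%, and 2.17% against 2.82%). In the third joint KIN14B was higher at stage 5 (1.09% against 0.449%) and none lower (0.306%), and CYCP2-1, KIN5A, KIN7D, KIN7K, KIN13B, KIN14B and KIN14C were lower at stage 6 (7.61% against 0.742%), with none higher (0.286%). The total was 6 without the third joint at stage 5 replicate 2, 9 without replicate 1 or 2 of the second joint at stage 4, the third joint at stage 5 replicate 1 or the third joint at stage 6 replicate 2, and 31 without the second joint at stage 5 replicate 2. The mitotic cyclins, CDKB2-1, the MCM genes and the RPA genes held no call in any of these steps. Among them CYCB1-1, CYCB2-1, CYCB2-2, MCM3 to MCM7, RPA1B and RPA2A were already under the floor in every joint at stage 4. A further fall in these may not show.

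**Figure D5:**
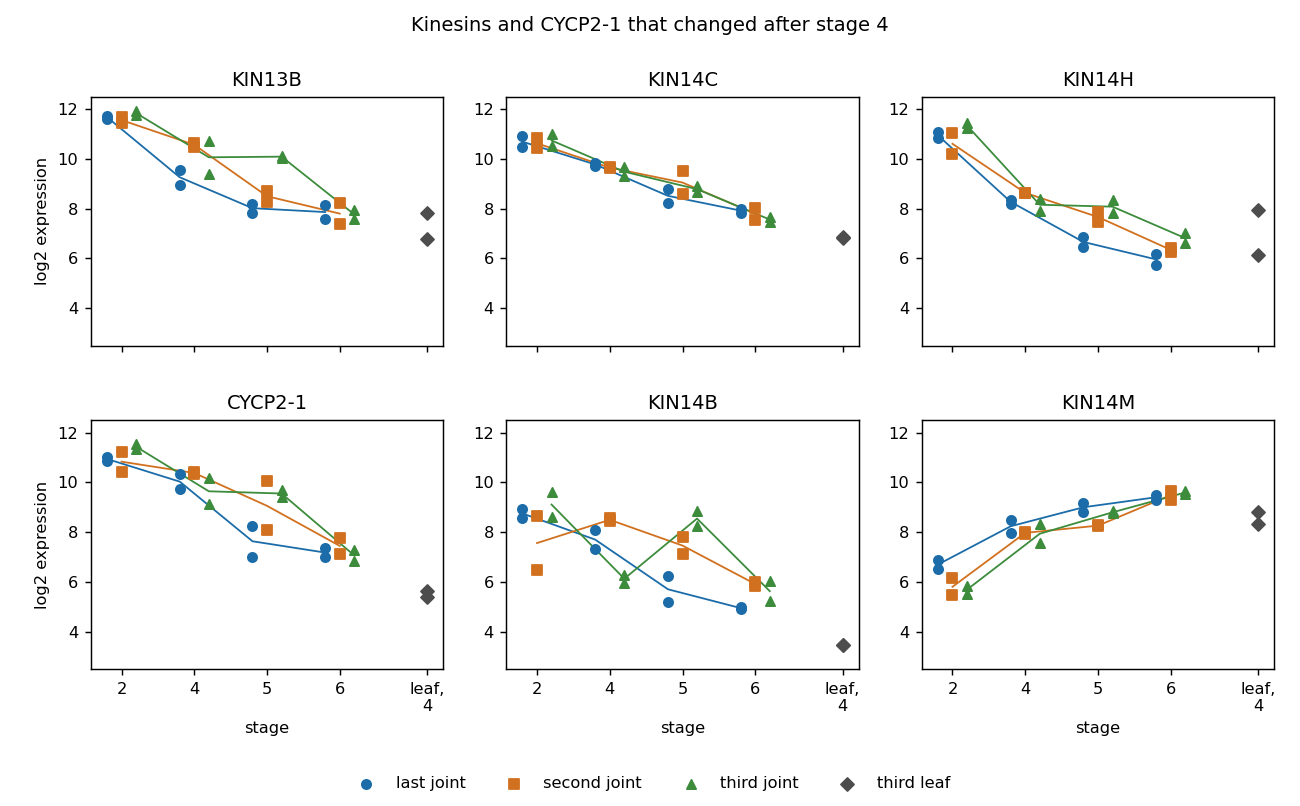
Level (log2 expression, vertical axis) of 6 genes on each array by stage (horizontal axis), with the last, the second and the third joints as circles, squares and triangles, lines through the group means, and the leaf piece at stage 4 as diamonds. At stage 6 KIN14C lies at 7.46 to 8.03 and KIN14M at 9.30 to 9.67 in the joints.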

How the data were processed

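Lamina joint and leaf RNA was hybridised to 26 Affymetrix rice arrays, extracted with Trizol and labelled with biotin by a 3' IVT kit per the labels' protocols. What the authors deposited is a table of log2 values made with RMA, per the submitters' processing notes, whose version is not given in the sources used here. They run from 2.27 to 14.8, and no read depth applies: the number of arrays limits the precision. RMA already corrects background and normalises between arrays by quantiles, so a change shared by most genes would not show.

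Probe sets were named through the platform annotation and RefSeq synonyms (assembly ASM3414082v1): 22436 match 1 gene, 95 several and 34727 none. For 14 of the genes described several probe sets match, and 7 rest on a probe set with the suffix _x_at, which may cross-hybridise. Probe sets with the suffix _s_at, as for CDKA-1 and ORC4, were not counted among these. The 123 control probe sets were left out. One limma 3.58.1 model (R 4.3.3) with 13 group means gave moderated two-sided tests, with Benjamini-Hochberg adjustment over 57258 probe sets. Differences between leaves in the steps were tested with an F-test over 6 contrasts, with no fold limit. The background percentages cover all probe sets, while each gene is represented by its brightest probe set.

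Genes and gene lists were chosen with earlier results of these data known. Differences were printed with errors for the most changed of each family (3 cyclins, 3 CDKs, 4 kinesins and 2 of each other family, called genes first), PCNA, called genes against the main direction, and the 3 smallest adjusted p between leaves. For the further pathway genes, the 2 most changed called genes of each step were named. Alternatives were a further quantile normalisation, a filter on dim probe sets, the mean of a gene's probe sets, only the arrays compared, the replicate block, the Gapdh difference as a covariate, leaving out arrays that stand apart, limma's treat at 2-fold, and each array left out in turn. The model was tested on simulated data.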

Additional observations from a re-analysis of the deposited data

Results flagged for a closer look

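In 10 genes the stage steps differed between the 3 leaves by the limma F-test over the whole set of steps. Of the replication genes, ORC1 had an adjusted p of 0.00717. The test covers all steps together and the first step alone was not tested. Its stage 4 minus stage 2 difference was 0.16 in the last joint, -2.04 in the second and -2.17 in the third. MCM3 (adjusted p = 0.0381) had -0.41, -3.17 and -2.31 in the same joints, MCM4 (adjusted p = 0.0216) -0.55, -3.47 and -2.79, MCM5 (adjusted p = 0.0213) -0.10, -2.46 and -2.40, and MCM6 (adjusted p = 0.0349) -0.21, -1.91 and -1.43. KIN10C (adjusted p = 0.0116) had 0.30, -3.05 and -2.66. In these 6 genes the step of the last joint was the smallest of the 3, and the stage 2 arrays of that joint lay far apart.

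The D-type cyclins CYCD3-2 (adjusted p = 0.0159) and CYCD5-3 (adjusted p = 0.0195) had their largest step in the third joint, with -1.19, -1.76 and -4.16 for CYCD3-2 and 0.72, 1.84 and 2.3 for CYCD5-3 in the last, the second and the third joints.

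ORC5 (adjusted p = 0.0072) lay under 5.11, the median of all values, in every group, so its steps may not be above background. It had first steps of 0.67, -0.50 and -0.30, and stage 5 minus stage 4 was -0.50, 1.06 and -0.45 in the last, the second and the third joints. KIN14B (adjusted p = 0.00902) had first steps of -1.05, 0.94 and -2.98, steps of -2.0, -1.04 and 2.42 at stage 5, and steps of -0.76, -1.55 and -2.92 at stage 6.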

How the results depend on the processing

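The fall between the young and the mature joint was the most stable count: with each array left out in turn, 36 to 40 genes were lower and 3 to 5 higher. The same settings gave 9 to 11 higher and 1 to 6 lower between the third joint and the leaf, 0 to 5 lower and 0 higher at stage 5, and 3 to 6 lower and 0 to 2 higher at stage 6. Within leaves the first step gave 12 to 21 calls in the last joint, 31 to 38 in the second and 35 to 48 in the third, and the later steps 6 to 31. Between leaves at stage 2 there were 0 to 21 (the last and the second), 7 to 36 (the last and the third) and 2 to 5 (the second and the third), averaged over stages 0 to 6, and the F-test gave 2 to 24. With only the arrays compared, the counts were 0 lower at stage 5, 29 in the first step of the third joint, 0, 1 and 1 between leaves at stage 2 in the same order, and 2 in the later steps. With the Gapdh covariate 3 genes rose in the first step, 1 fell at stage 6 and 5 were called in the later steps within leaves. With the 2 arrays that stand apart left out together (replicate 2 of the third joint at stage 4, replicate 1 of the second at stage 5), 3 rose in the first step. With limma's treat at 2-fold, 6 genes were higher and 0 lower in the joint than in the leaf, 2 rose and 23 fell in the first step, 0 fell at stage 5 and 0 at stage 6. The same test called 4, 20 and 23 in the first step of the last, the second and the third joints, 0, 1 and 0 between leaves at stage 2, 0 in the later steps and 0 averaged over stages. Treat asks for more than a 2-fold change, which lowers every count by construction; for the other settings the cause was not tested. Leaving out replicate 2 of the last and replicate 1 of the third joint at stage 2, chosen after seeing the data, gave 29 genes in the first step of the last joint, 5 between the second and the third joints and 17 by the F-test. Replicate numbers did not pair the samples (r of deviations -0.306 to 0.553 over 78 pairs of groups, median 0.0397), and with the replicate block 1 gene, in place of 2, was lower at stage 5 (CYCP2-1 adjusted p = 0.0542). Some uncalled differences changed sign. At stage 5, PCNA was at -0.02 without replicate 2 of the last joint at stage 4 and at -0.10 without replicate 1 of the third (range of all leave-outs -0.0992 to 0.219), and RFC5 ranged from -0.296 to 0.0244, positive without replicate 1 of the second joint at stage 5. ORC4 was at 0.0311 and RFC1 at 0.0499 without both arrays that stand apart, and at stage 6 ORC2 ranged from -0.247 to 0.00815, positive without replicate 2 of the second joint at stage 5. A further quantile normalisation, the filter on dim probe sets and the mean of a gene's probe sets moved no count by over 1.5 times.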
